A study of Mus musculus with 15 samples.

Results

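Gene expression of the normal suprachiasmatic nucleus (SCN), the paired hypothalamic nucleus that holds the master circadian clock of mammals, was compared between the subjective night and the subjective day. The comparison used all 8 control libraries of the 15 RNA sequencing libraries in the series, 5 taken at circadian time (CT) 16 and 3 at CT4, and asked of each gene whether its level differed between these times. The mice were of C57BL/6 background and 8 to 12 weeks old, and each library pooled 2 to 4 hypothalamic punches. The other 7 libraries, 3 at CT4 and 4 at CT16, came from mice labelled as double knockouts of the REV-ERB receptors (called DKO below after that label), with the same background and ages, and enter here through the shared estimate of spread and the comparison of time changes between genotypes. The labels name the genotype of the 8 libraries control, with WT in their titles, and give neither alleles nor a Cre driver for either genotype. Which mice went into each pool is not stated either, and the tests below rest on how far pools of 1 group lay apart, which may be partly technical. With only CT4 and CT16 sampled, a gene that peaks between these times can stand at the same level in both.

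In SCN neurons, as in most cells, CLOCK and BMAL1 drive E-box genes, among them the period and cryptochrome genes, whose proteins come back to repress them. A second loop joins the REV-ERB and ROR receptors, which repress and activate Bmal1 and other genes through ROR elements. The SCN fires more in the day than in the night, synchronises its cells through neuropeptides such as AVP and VIP, and times the daily release of adrenal glucocorticoids, to which the glia, vessels and neurons around it respond.

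Counts over control libraries summed to between 32580803 and 52171231 reads. The defining markers of the labelled tissue were present in every control library, with Avp at 72.3 to 681 CPM (reads of the gene after scaling each library to a common total), Vip at 31.5 to 145, Six6 at 23.8 to 79.8 and Lhx1 at 9.48 to 63.8 CPM. Markers of other hypothalamic nuclei were also present and uneven. As the mean log2 CPM of 26 such markers, set against the 8 control libraries, control CT4 replicate 1 stood at 0.35 and the other CT4 libraries at -0.98 and -0.51, while control CT16 replicate 5 stood at 1.03 and the other CT16 libraries at -0.35 to 0.39. Ependymal and tanycyte markers were highest in the same pair of libraries, at 0.45 and 1.03 against -0.46 to 0.10 elsewhere. Myelin markers stood at -0.68 to -0.47 in CT16 replicates 3, 4 and 5 and at 0.07 to 0.55 in the other 5 libraries. Control CT4 replicate 1 and control CT16 replicate 5 are therefore left out together beside the counts below.

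**Figure D1:**
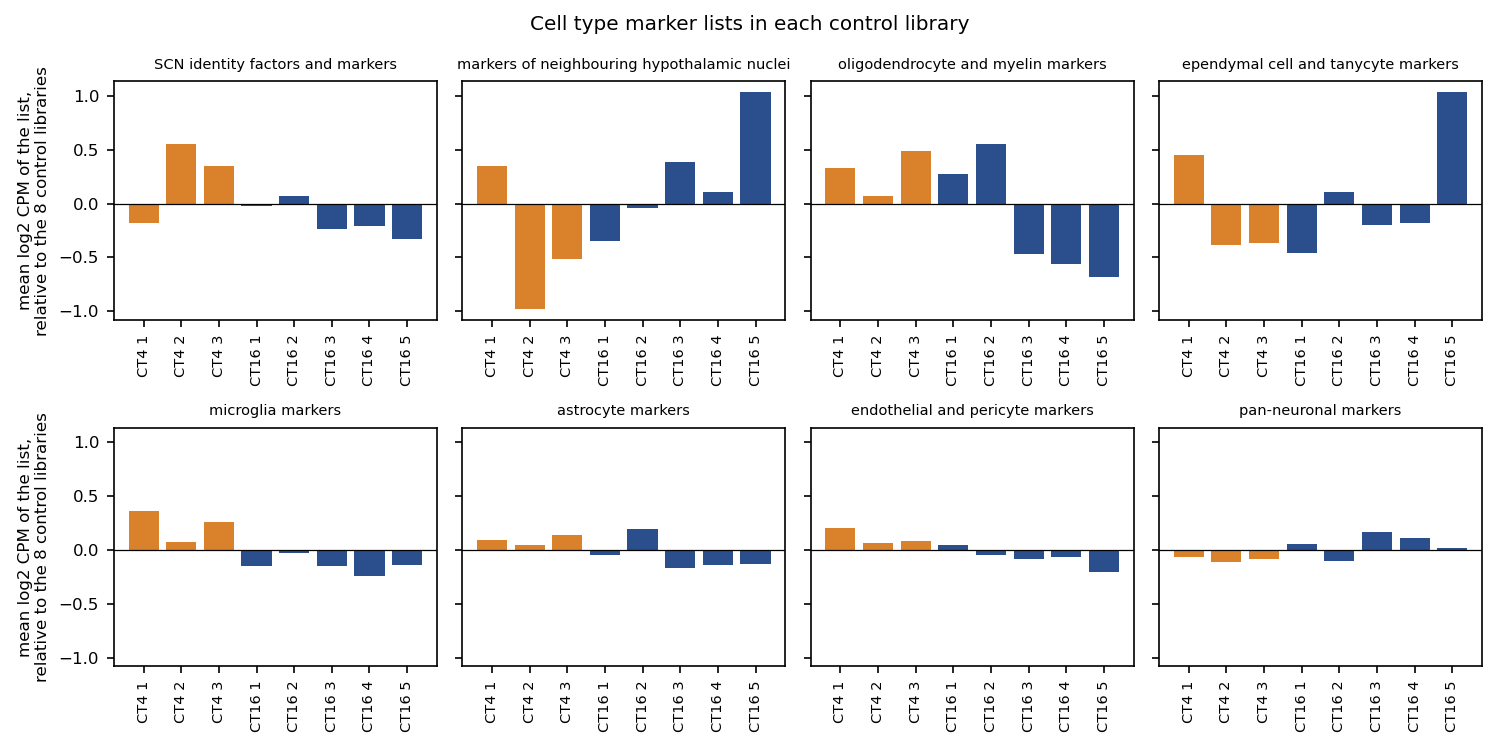
Mean log2 CPM of 8 cell type marker lists in each control library, each gene centred on its mean over the 8 control libraries (bars, CT4 orange and CT16 blue, replicate number under each bar). Markers of neighbouring nuclei are highest in CT16 replicate 5 (1.03) and lowest in CT4 replicate 2 (-0.98), and every microglia bar at CT4 lies above every one at CT16.

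Many genes that respond to glucocorticoids were higher at CT16, as were many chaperones of the endoplasmic reticulum, some heat shock genes and several immediate early genes. Lower at CT16 were Fabp7, Mmp14, Nr1d1, Dbp, several targets of Notch signalling and several genes of microglia and vessels. Of 16910 genes tested, 712 passed an adjusted p of 0.05 (4.21%, edgeR quasi-likelihood test with Benjamini-Hochberg adjustment). Of these, 360 were higher at CT16 (2.13% of genes tested) and 352 lower (2.08%). Rises by more than 2-fold numbered 60 and falls 47. The median log2 fold change was 0.35 among the higher genes, -0.47 among the lower ones and -0.01 among all genes. For 2670 genes (15.8%) the 3 CT4 libraries did not overlap the 5 CT16 libraries, and 355 of the higher and 341 of the lower genes were among them. Genes that rose were more abundant, with a median log2 CPM of 5.54 against 4.42 for those that fell and 4.33 for all genes tested, and their median exonic length was 2618 bases against 3566 and 2808.

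How many genes passed rested on the libraries. Without control CT4 replicate 1 and control CT16 replicate 5, 149 genes passed, of which 146 belonged to the 712. The count was 235 genes without CT4 replicate 2, 267 without CT4 replicate 1, 332 without CT4 replicate 3, 410, 447 and 471 without CT16 replicates 3, 4 and 5, 498 without CT16 replicate 1 and 857 without CT16 replicate 2. Fold changes below are log2, CT16 over CT4, ± standard error from the fitted model, and p-values are those of the edgeR test adjusted over all genes.

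**Figure D2:**
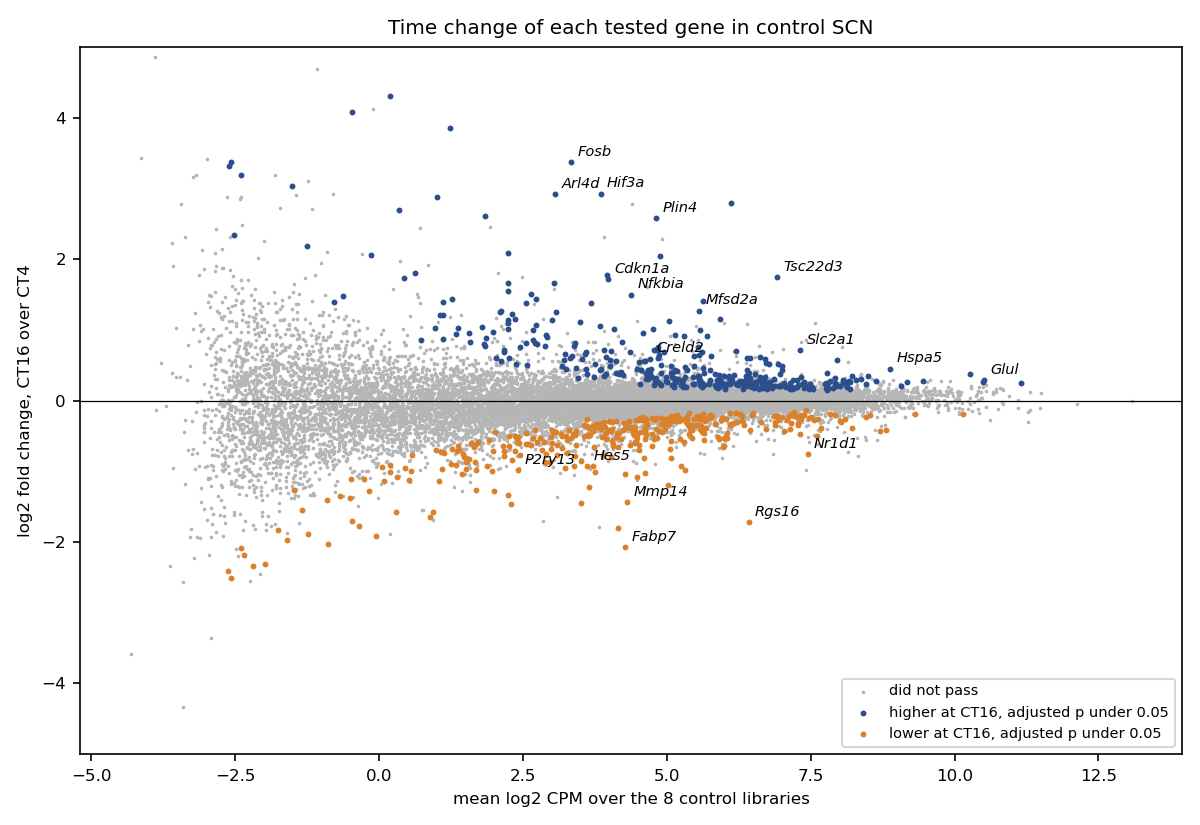
Log2 fold change, CT16 over CT4, of the 16910 tested genes in control SCN against their mean log2 CPM over the 8 control libraries (1 gene lies outside the axes). Genes that passed are blue where higher (360) and orange where lower (352), and the named rises reach larger folds than the named falls.

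Most of the clock genes themselves did not pass between these times, though a larger share passed than the 4.21% of all genes. Of 10 tested activators and ROR-element genes of the clock, Nfil3 rose, Nr1d1 fell and 8 did not pass. Rora (-0.42 ± 0.27) and Rorb (-0.14 ± 0.24), activators that oppose the REV-ERBs, were among the latter. Among 10 period, cryptochrome and E-box output genes, Dbp and Bhlhe40 fell and 8 did not pass. Of these 10, 6 had an unadjusted p under 0.05, against 3372 of all 16910 genes. DESeq2 and voom called 4 each, against 1317 and 1856 of all genes. Nr1d1, which encodes REV-ERB alpha (chromosome 11, 98767932 to 98775377, minus strand, mm10), stood at 198, 282 and 248 CPM in CT4 replicates 1 to 3 and at 150, 144, 146, 144 and 135 CPM in CT16 replicates 1 to 5. All CT16 libraries lay below all CT4 libraries, within a narrow band. It fell by 0.75 ± 0.13 (adjusted p = 0.00589). Nr1d2, which encodes REV-ERB beta, was 116 to 130 CPM at CT4 and 96.7 to 118 CPM at CT16 (-0.15 ± 0.08, adjusted p = 0.302).

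Dbp, a D-box activator and E-box target (chromosome 7, 45705247 to 45710203, plus strand), stood at 33.6, 33.3 and 38 CPM at CT4 and 20, 27.1, 19.1, 16 and 17.1 CPM at CT16. The groups did not overlap, and Dbp fell by 0.81 ± 0.16 (adjusted p = 0.0135). Of its exonic bases, 32.1% overlap the oppositely oriented gene Sphk2 (0.26), and the strand setting of the counting is not given in the sources used here, so reads there may belong to either. Bhlhe40, a repressor of CLOCK and BMAL1, fell by 0.41 ± 0.09 (adjusted p = 0.0154), from 52.5 to 62.9 CPM at CT4 to 36.6 to 48.2 CPM at CT16. Nfil3, the repressor that opposes DBP at D-boxes, moved the other way: it rose from 9.62, 7.99 and 9.11 CPM to 14.5, 12.5, 14.4, 13.3 and 12.3 CPM (0.59 ± 0.15, adjusted p = 0.0331). The call of Nfil3 was lost in 8 of 20 alternatives, those of Dbp and Bhlhe40 in 4 each and that of Nr1d1 in 1.

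Per1 and Per2 stood higher at CT16 without passing. Of 20 alternatives, Per1 passed in 2, Per2 in 4 and Bhlhe41 in 3. Per2 was 51.2, 54.3 and 57.1 CPM at CT4 and 91.4, 124, 81.2, 68.8 and 73.6 CPM at CT16. Its groups did not overlap but its CT16 libraries were spread widely, and the change of 0.70 ± 0.21 did not pass (adjusted p = 0.0831). Per1 differed by 0.31 ± 0.11 (adjusted p = 0.142) and Per3 by 0.07 ± 0.08. Arntl, which encodes BMAL1, stood at 39.2 to 43 CPM at CT4 and 27.5 to 44.2 CPM at CT16 (-0.16 ± 0.14), and Clock (-0.05 ± 0.06), Npas2 (-0.02 ± 0.16), Cry1 (0.17 ± 0.12) and Cry2 (-0.02 ± 0.05) lay near 0. Tef (-0.13 ± 0.06) and Hlf (-0.15 ± 0.13), relatives of Dbp, did not pass, and Bhlhe41 (-0.33 ± 0.11, adjusted p = 0.0970) and Ciart (-0.36 ± 0.14, adjusted p = 0.182) stood lower without passing. Among 15 kinases, phosphatases and ubiquitin ligases of the clock, Usp2, a deubiquitinase with a rhythm in many tissues, rose from 22.2 to 25.3 CPM at CT4 to 37.9 to 51.8 CPM at CT16 (0.93 ± 0.10, adjusted p = 5.40e-05), and Prkaa2, a catalytic subunit of AMP kinase, fell by 0.30 ± 0.06 (adjusted p = 0.0157). Prkaa2 did not pass in 6 of 20 alternatives, and Usp2 passed in all. The other 13 of the 15 did not pass, where 4.21% of all genes passed.

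**Figure D3:**
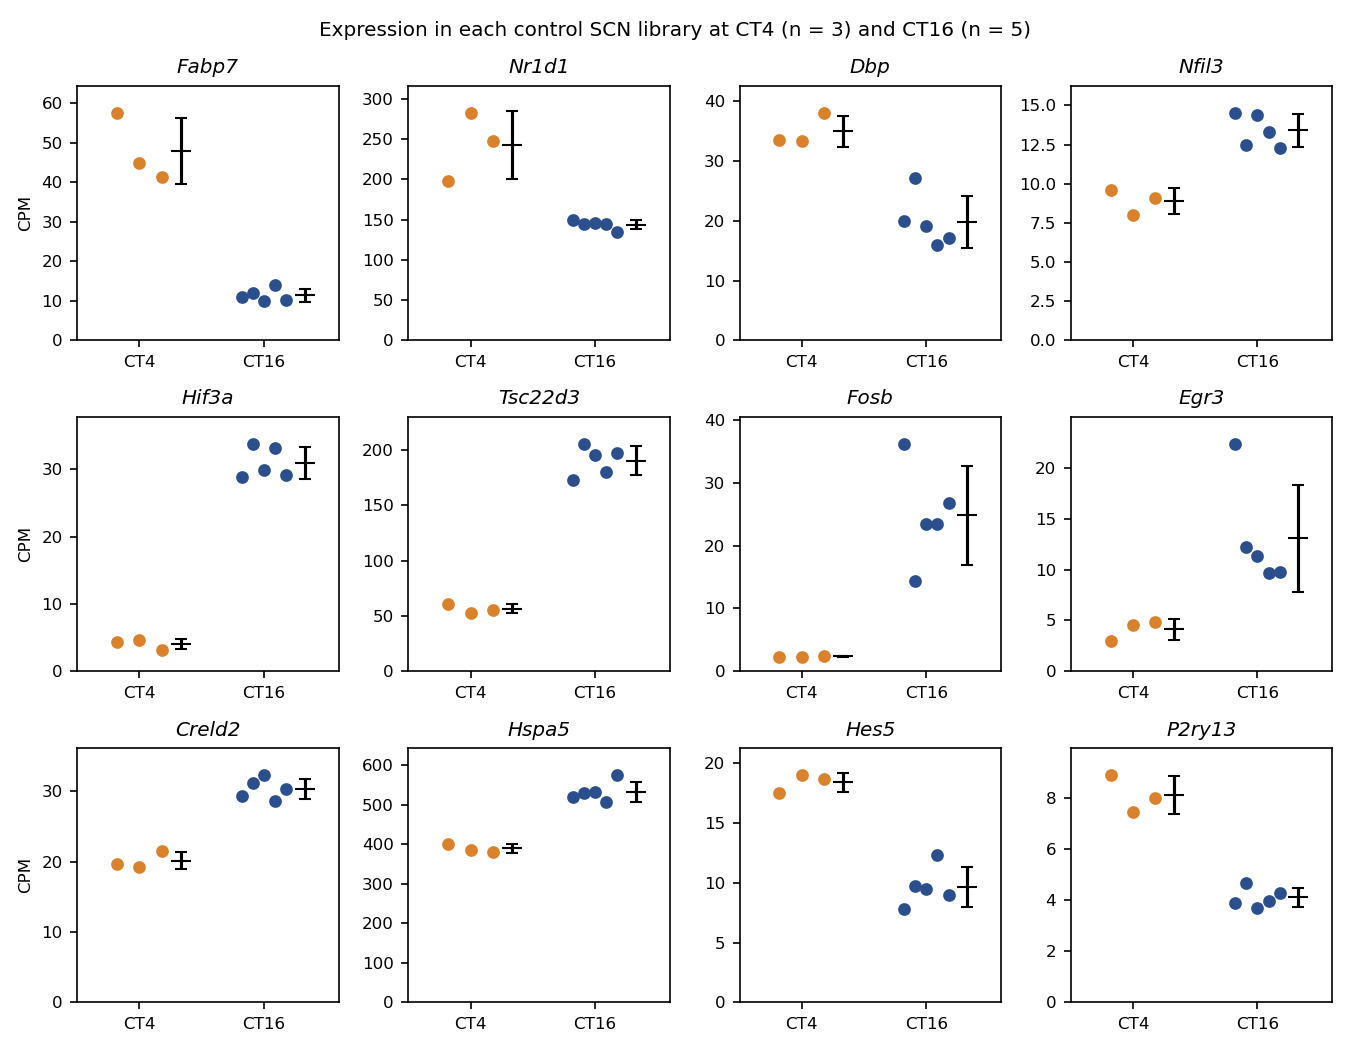
CPM of 12 genes in each control library at CT4 (orange, 3 libraries) and CT16 (blue, 5 libraries), with the mean and SD of each group in black and each vertical axis starting at 0. The groups do not overlap for any of the 12, and CT16 replicate 1 stands apart for Egr3 (22.3 CPM against 9.7 to 12.2).

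Glucocorticoid-responsive genes had the highest median fold change of the 36 lists. The list was drawn up as genes responsive to glucocorticoids, and it also holds Nr3c1, the gene of the glucocorticoid receptor. Binding of the receptor to these genes was not measured here. Members of this and the other lists were chosen with earlier results of these data known. Of 24 tested, 16 rose (against 2.13% of all genes), none fell and 8 did not pass, and 21 did not overlap between the times (against 15.8%). Their median log2 fold change was 0.95, against -0.01 over all genes. Without control CT4 replicate 1 and control CT16 replicate 5, 14 rose and the median was 0.97.

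Tsc22d3, which encodes GILZ, an anti-inflammatory partner of transcription factors (chromosome X, 140539529 to 140600522, minus strand), stood at 61, 52.8 and 55.8 CPM at CT4 and at 173, 205, 195, 180 and 197 CPM at CT16. Every CT16 library was far above every CT4 library. The rise of 1.75 ± 0.08 had the smallest adjusted p of all genes (2.39e-09). Hif3a, a member of the hypoxia-inducible factor family that lies on chromosome 7 (17030993 to 17062427, minus strand), rose from 4.32, 4.6 and 3.19 CPM to 28.8, 33.7, 29.9, 33.2 and 29.1 CPM, a 7.61-fold change (2.93 ± 0.17, adjusted p = 2.60e-07). Mfsd2a, a transporter of lysophosphatidylcholine that keeps vesicle traffic low in brain endothelium, stood at 29, 25.7 and 27.2 CPM at CT4 and 62.2, 70.2, 61, 63.9 and 72 CPM at CT16 (1.27 ± 0.11, adjusted p = 1.87e-05). The cell cycle inhibitor gene Cdkn1a rose from 7.14 to 7.91 CPM to 17.9 to 29.2 CPM (1.72 ± 0.15, adjusted p = 2.20e-05).

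Some members were uneven within CT16. Sgk1, a kinase of ion transport, stood at 20.8, 22.7 and 20.9 CPM at CT4 and at 191, 245, 123, 95.5 and 94.6 CPM at CT16, highest in replicates 1 and 2. Plin4, a lipid droplet coat protein, had the same 2 libraries highest, at 66.2 and 83.2 CPM against 43.7 to 44.7 CPM in the others and 7.21 to 11.6 CPM at CT4. These are the CT16 libraries with the highest myelin score, 0.27 and 0.55, and the part of that score in the difference among CT16 libraries was not tested. With the myelin score as a covariate, Sgk1 rose by 3.15 ± 0.15 and Plin4 by 2.78 ± 0.15, and in the list 19 members rose and 1 fell. Zbtb16, a zinc finger repressor, rose by 2.04 ± 0.31, Klf15 and Klf9, Krüppel-like factors that act with the receptor, by 0.92 ± 0.11 and 0.70 ± 0.10, and Map3k6, a stress kinase, by 1.66 ± 0.25. Ddit4 and Fkbp5, which restrain mTOR and the receptor itself, rose by 0.92 ± 0.13 and 1.00 ± 0.18, and Nfkbia, the inhibitor of NF-kB, by 1.5 ± 0.17. Arl4d, a small GTPase, rose from 2.22 to 2.45 CPM to 12.8 to 24.9 CPM (2.92 ± 0.38). Cables1 (0.49 ± 0.08) and Sult1a1 (0.81 ± 0.13) completed the 16. Nr3c1, which encodes the receptor, stood at -0.19 ± 0.09 (adjusted p = 0.25), and the metallothionein genes Mt1 and Mt2 at 0.26 ± 0.11 and 0.24 ± 0.13 did not pass.

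The promoter of Klf15 is shown because it held 3 E-boxes, the motif that CLOCK and BMAL1 bind. Its sequence and those below are from RefSeq on GRCm38.p6, the assembly of mm10, and run 5′ to 3′ along the gene from 250 bases before its start to 50 after it (chr6:90462326-90462625, plus strand), with E-boxes in capitals.
Klf15: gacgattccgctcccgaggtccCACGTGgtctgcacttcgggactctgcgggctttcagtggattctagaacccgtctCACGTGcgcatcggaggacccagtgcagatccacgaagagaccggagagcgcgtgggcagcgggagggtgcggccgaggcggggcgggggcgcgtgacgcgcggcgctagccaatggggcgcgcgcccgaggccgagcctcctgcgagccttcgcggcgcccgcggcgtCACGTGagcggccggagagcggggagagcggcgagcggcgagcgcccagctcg

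Motifs were searched in both strands of such windows, which were matched for 12563 tested genes, and a match describes letters only. The E-box CACGTG occurred in 11.5% of the windows of genes that rose, 9.19% of those of genes that fell and 9.58% of those of all tested genes. The glucocorticoid response element, searched by its consensus, occurred in 0 of the 20 windows of the glucocorticoid list and 0 of the 296 windows of genes that rose, and in 0.0318% of all tested windows, which says only that these letters are not in these windows. Klf15 stood at 25.5, 26.4 and 27.2 CPM at CT4 and 50.4, 59.3, 45.3, 48.2 and 45.9 CPM at CT16.

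Many chaperones and folding enzymes of the endoplasmic reticulum (ER) rose by small amounts. The ER folds secreted and membrane proteins, and cells raise these chaperones through the unfolded protein response when the load grows. Of 21 tested genes, 14 rose (against 2.13% of all genes), none fell and 7 did not pass. All 21 fold changes lay above 0, from 0.05 to 0.70, with a median of 0.26, and 17 did not overlap between the times (against 15.8% of all genes). Without control CT4 replicate 1 and control CT16 replicate 5, 6 of the 21 rose with the median still at 0.26, and leaving out single control libraries left 6 to 14, fewest without CT4 replicate 2.

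Sdf2l1, a regulator of the BiP chaperone cycle, stood at 13.3, 11 and 12 CPM at CT4 and 21.5, 19.1, 19.9, 17.1 and 20.8 CPM at CT16 (0.70 ± 0.10, adjusted p = 0.00112). Creld2, a secreted disulfide isomerase relative induced by ER stress, stood at 19.7, 19.2 and 21.5 CPM and then 29.3, 31.2, 32.3, 28.7 and 30.3 CPM, so that its groups lay well apart (0.59 ± 0.09, adjusted p = 0.00153). Hspa5, which encodes BiP itself and was far more abundant, stood at 401, 386 and 380 CPM at CT4 and 520, 528, 531, 507 and 574 CPM at CT16 (0.45 ± 0.08, adjusted p = 0.00442). The disulfide isomerase genes Pdia4, Pdia6 and Pdia3 rose by 0.36 ± 0.07, 0.33 ± 0.06 and 0.21 ± 0.05, and Herpud1, a component of ER-associated degradation, by 0.30 ± 0.06. Xbp1, the transcription factor whose spliced form drives ER chaperones, rose by 0.33 ± 0.07 (adjusted p = 0.00921). Calr (0.27 ± 0.05), Dnajb11 (0.33 ± 0.07), Manf (0.39 ± 0.08), Dnajc3 (0.23 ± 0.05), Hsp90b1 (0.20 ± 0.05) and Hyou1 (0.26 ± 0.06) made up the rest. Ddit3 (0.05 ± 0.08) and Atf4 (0.15 ± 0.05), transcription factors of the PERK branch, did not pass.

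These promoters are shown because many of them held the endoplasmic reticulum stress element, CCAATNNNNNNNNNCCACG, a site of ATF6. It was found in the windows of 8 of the 18 members with a window, against 0.159% of tested genes (20 of 12563). Those are the 8 genes below, chosen after the matches were seen. Each element is in capitals, in the orientation of the gene, with 10 bases on either side. Lines that begin the capitals with CGTGG hold the element on the reverse strand. Hsp90b1 held a pair of elements.
Hspa5 (chr2:34772015-34772053, plus strand): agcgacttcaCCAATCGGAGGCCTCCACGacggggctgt
Hsp90b1 (chr10:86705628-86705666, minus strand): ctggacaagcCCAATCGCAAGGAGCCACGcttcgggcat
Hsp90b1 (chr10:86705523-86705561, minus strand): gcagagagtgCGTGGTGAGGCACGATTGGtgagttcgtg
Pdia6 (chr12:17266481-17266519, plus strand): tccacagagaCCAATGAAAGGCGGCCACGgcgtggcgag
Calr (chr8:84847065-84847103, minus strand): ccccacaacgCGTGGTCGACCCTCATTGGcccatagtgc
Canx (chr11:50325790-50325828, minus strand): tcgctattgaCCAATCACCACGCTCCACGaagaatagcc
Dnajc3 (chr14:118937817-118937855, plus strand): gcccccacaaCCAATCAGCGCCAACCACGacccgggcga
Creld2 (chr15:88819510-88819548, plus strand): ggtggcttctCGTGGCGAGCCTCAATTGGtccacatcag
Syvn1 (chr19:6046522-6046560, plus strand): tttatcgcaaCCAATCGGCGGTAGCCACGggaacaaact

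Of these 8 genes, 6 rose (Hspa5, Hsp90b1, Pdia6, Calr, Dnajc3 and Creld2), while Canx (0.16 ± 0.05, adjusted p = 0.102) and Syvn1 (0.07 ± 0.06) did not pass. The 12 tested genes outside the list with the element had a median log2 fold change of -0.04 and none passed. No gene that fell held it among 272 windows.

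Part of a list of heat shock and temperature-responsive genes rose, most of them chaperones and their partners. Of 28 tested, 12 rose (against 2.13% of all genes), none fell and 16 did not pass. The median was 0.22, and 16 did not overlap between the times (against 15.8% of all genes). Without the libraries with the highest neighbouring nuclei score at each time, 5 rose (median 0.23), and leaving out single control libraries left 5 to 13, fewest without CT4 replicate 2. Rbm3, an RNA-binding protein induced by mild cold, had the smallest p of the list and stood at 34.2, 36.4 and 36.7 CPM at CT4 and 51, 63.5, 52.3, 54.5 and 56.7 CPM at CT16 (0.64 ± 0.08, adjusted p = 0.000566). It rose together with genes induced by heat, while Cirbp, the other cold-inducible member, stood at -0.10 ± 0.09. Dnajb1, a partner of HSP70 and classic target of heat shock factor, rose from 63.1, 71.1 and 68.7 CPM to 111, 105, 112, 98.1 and 87.7 CPM (0.60 ± 0.10, adjusted p = 0.00315).

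Hspa1b, an inducible HSP70 gene, rose from 4.56 to 5.36 CPM to 10.3 to 13.9 CPM (1.25 ± 0.21, adjusted p = 0.00344), and Hspa1a by 0.67 ± 0.17 (adjusted p = 0.0427). The copies are almost the same in sequence, and how their reads were divided is uncertain. Fkbp4, a co-chaperone of steroid receptors, stood at 197, 174 and 188 CPM at CT4 and 246, 223, 251, 245 and 253 CPM at CT16 (0.39 ± 0.07, adjusted p = 0.00334). Chordc1, an HSP90 partner, rose by 0.38 ± 0.07 (adjusted p = 0.00783), and Stip1, which bridges HSP70 and HSP90, by 0.22 ± 0.06 (adjusted p = 0.0374). Hsp90ab1 (0.16 ± 0.05, adjusted p = 0.0547) and Hsp90aa1 (0.12 ± 0.05) did not pass. The heat shock element GAANNTTCNNGAA occurred in 0.398% of tested windows, in 1.35% of those of genes that rose (4 of 296) and in none of those of genes that fell. It was found at 3 of the 22 list members with a window: Hspe1 and Chordc1, which rose, and Hsph1, which did not pass. The windows of Dnajb1 and Hspa1b held none. Among 47 tested genes with the element outside the list, 2 rose. Chordc1 held overlapping copies at its start, of which the first is shown in capitals in the line below.
Chordc1 (chr9:18292253-18292285, plus strand): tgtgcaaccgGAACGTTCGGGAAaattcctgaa

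Some of the immediate early genes, which neurons switch on within minutes of firing or of a stimulus, rose at CT16. Of 25 tested, 8 rose (against 2.13% of all genes), Ier5 fell and 16 did not pass, with a median of 0.58. Fosb, a partner of Jun in AP-1, stood at 2.37, 2.3 and 2.52 CPM at CT4 and at 36.1, 14.3, 23.4, 23.5 and 26.7 CPM at CT16, a 10.3-fold change (3.37 ± 0.38, adjusted p = 0.000571). The CT4 libraries were almost alike and all CT16 libraries were several times higher, though spread. Egr3 stood at 2.99, 4.52 and 4.87 CPM at CT4 and 22.3, 12.2, 11.3, 9.7 and 9.75 CPM at CT16 (1.66 ± 0.30, adjusted p = 0.00783). Egr1 rose by 1.41 ± 0.29 (adjusted p = 0.0213) and Egr4 by 1.21 ± 0.29 (adjusted p = 0.029), both zinc finger factors of the same family. Klf4 (0.93 ± 0.18), Maff (0.81 ± 0.21) and Jun (0.38 ± 0.08) also rose.

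Fosl1 passed at 0.12 to 0.33 CPM at CT16 against 0 to 0.04 CPM at CT4, and 67.7% of its exonic bases overlap the oppositely oriented gene Ccdc85b. Fos (0.81 ± 0.38, adjusted p = 0.263), Arc (-0.04 ± 0.15) and Npas4 (-0.50 ± 0.15, adjusted p = 0.0646), a gene induced by neuronal activity, did not pass. Without control CT4 replicate 1 and control CT16 replicate 5, 1 member rose and the median was 0.40, and leaving out single control libraries left 3 to 9 that rose, fewest without CT4 replicate 2. Fosb kept its call in all 20 alternatives, and Egr3 and Klf4 lost theirs in 2 each. Feedback inhibitors of growth factor signalling rose beside them: Dusp6, a phosphatase of ERK, by 0.57 ± 0.11 (adjusted p = 0.00911), Errfi1, an inhibitor of the EGF receptor, by 0.75 ± 0.16 (adjusted p = 0.0172), and Spred2, an inhibitor of Ras signalling, by 0.24 ± 0.06 (adjusted p = 0.0372). These were 3 of 14 tested (against 2.13% of all genes), none fell, and the median of that list was 0.03. With single control libraries left out, 0 to 3 rose, and the call of Spred2 was lost in 10 of 20 alternatives.

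**Figure D4:**
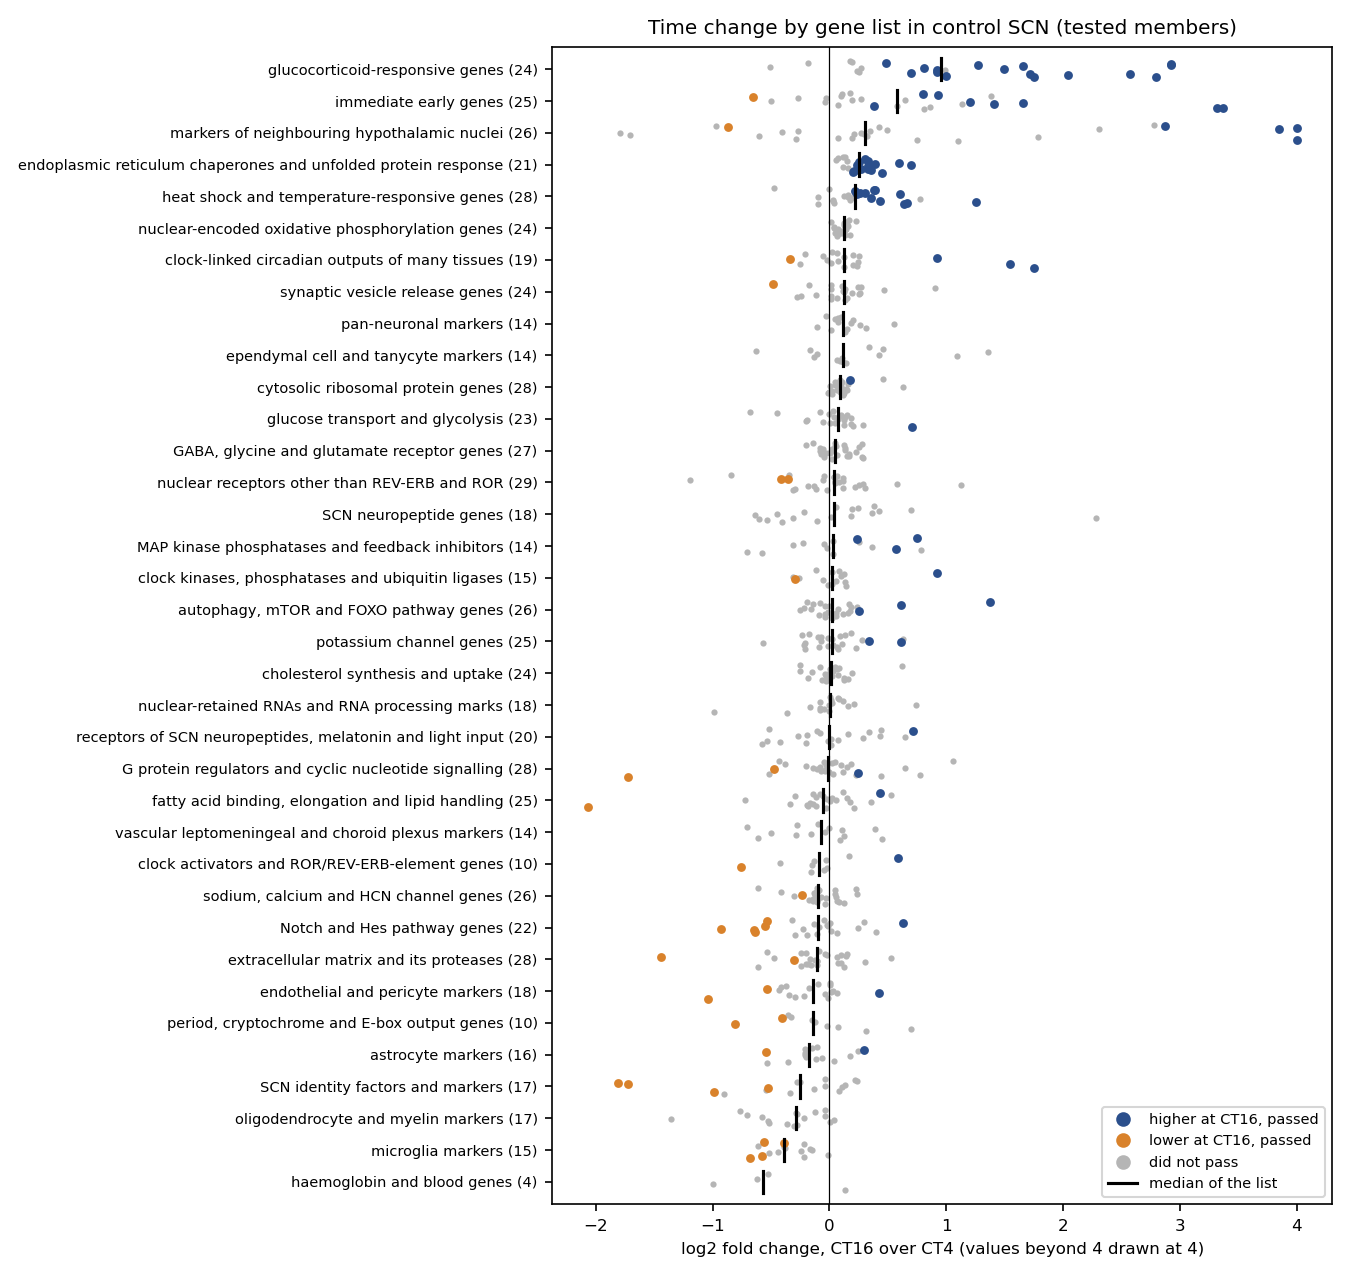
Log2 fold change, CT16 over CT4, of every tested member of the 36 gene lists in control SCN, ordered by the median of the list (black bar, number tested in brackets). Glucocorticoid-responsive genes have the highest median (0.95), ER chaperones lie wholly above 0, and microglia markers lie wholly below 0.

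Among the genes that fell, Fabp7 had the smallest p. It encodes a lipid chaperone found in astrocytes and radial glia, and lies on chromosome 10 (57784923 to 57788450, plus strand). It stood at 57.4, 44.9 and 41.4 CPM at CT4 and at 11, 11.9, 9.91, 14.1 and 10.1 CPM at CT16. The groups were far apart, and Fabp7 was 4.19-fold lower at CT16 (-2.07 ± 0.16, adjusted p = 2.25e-05). Its promoter is shown because it was among the 1.84% of tested windows that held the ROR element core TAGGTCA, which REV-ERB and ROR receptors bind. The share was 2.36% for genes that rose and 1.84% for genes that fell. Among the genes named here, the core was also found at Nfil3, Fndc1, Hmx2, Glul and C1qc. The core is in capitals and lies on the reverse strand (chr10:57784673-57784972, plus strand).
Fabp7: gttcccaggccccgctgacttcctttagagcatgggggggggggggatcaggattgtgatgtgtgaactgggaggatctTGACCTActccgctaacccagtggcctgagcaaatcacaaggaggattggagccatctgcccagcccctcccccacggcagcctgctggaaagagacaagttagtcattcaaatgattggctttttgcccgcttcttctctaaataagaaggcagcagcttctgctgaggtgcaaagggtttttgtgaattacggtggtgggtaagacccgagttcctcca

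Mmp14, a membrane-bound protease of the extracellular matrix (chromosome 14, 54431604 to 54441258, plus strand), stood at 41.1, 36 and 34.6 CPM at CT4 and 14.1, 9.91, 15, 16 and 13.7 CPM at CT16. No library of the groups came near the other group, and the fall was 1.44 ± 0.14 (adjusted p = 8.81e-05). Among 28 genes of the matrix and its proteases, Ncan, a proteoglycan of perineuronal matrix, was the other that fell (-0.31 ± 0.07, adjusted p = 0.0265), and none rose. The share of all genes that fell was 2.08%. Other falls with small p were those of Atp2a3, a calcium pump of the ER (-0.74 ± 0.09, adjusted p = 0.000291), Slc8b1, the mitochondrial sodium-calcium exchanger (-0.92 ± 0.12), and Fndc1 (-0.79 ± 0.10). Ctxn3 (-1.46 ± 0.22), Fam181a (-1.26 ± 0.22), Epha8 (-1.22 ± 0.24), an ephrin receptor, and Nkx6-2 (-1.20 ± 0.21), a homeobox factor of oligodendrocytes, were among the 16 largest falls with no overlap. Nkx6-2 stood at 29 and 31.4 CPM in CT16 replicates 1 and 2, where myelin markers were highest, and at 17.4 to 24.3 CPM in the other CT16 libraries, against 46.2 to 69.3 CPM at CT4. With the myelin score as a covariate the fall of Nkx6-2 was 0.99 ± 0.11 and passed (adjusted p = 8.93e-05).

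Further changes lay outside the lists. Kirrel2, an adhesion protein of the nephrin family, stood at 1.52, 2.1 and 2.12 CPM at CT4 and 6.95, 7.68, 7.21, 8.23 and 10.4 CPM at CT16 (2.09 ± 0.32, adjusted p = 0.00224). Rrad, a small GTPase that restrains calcium channels, rose from 6 to 8.1 CPM to 17.1 to 36.2 CPM (1.78 ± 0.25, adjusted p = 0.00181). Net1, an activator of RhoA, rose by 1.06 ± 0.10 (adjusted p = 1.87e-05), and Lrrc8a, the essential subunit of volume-regulated anion channels, by 0.52 ± 0.05 (adjusted p = 3.87e-05). These 4 rises kept their calls in all 20 alternatives. Among the large falls, Prdm13, a factor of hypothalamic and spinal neurons, fell by 1.34 ± 0.31 (adjusted p = 0.0250) and Tmem51 by 1.44 ± 0.34 (adjusted p = 0.0328), each with its call lost in 10 alternatives, and Cnih3, an auxiliary subunit of AMPA receptors, by 1.09 ± 0.26 (adjusted p = 0.0380), lost in 12.

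Several genes of Notch signalling fell. Notch receptors on astrocytes and progenitors turn on Hes and Hey repressors when bound by ligands such as Jagged. Of 22 tested genes of this pathway, 5 fell (against 2.08% of all genes), Lfng rose and 16 did not pass. Hes5, a direct Notch target (chromosome 4, 154960923 to 154962371, plus strand), stood at 17.5, 19 and 18.7 CPM at CT4 and 7.82, 9.74, 9.51, 12.3 and 8.96 CPM at CT16 (-0.93 ± 0.18, adjusted p = 0.00896). Heyl stood at 35.5, 35 and 33.8 CPM and then 25.2, 21.9, 24.7, 22.4 and 24.7 CPM (-0.55 ± 0.09, adjusted p = 0.00343). Both changes were larger than the spread within either time. Hes1 fell by 0.64 ± 0.13 and the ligand gene Jag1 by 0.64 ± 0.12, with Id2, a related inhibitor of helix-loop-helix factors, at -0.53 ± 0.11.

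Lfng, a glycosyltransferase that modifies Notch receptors and shifts their preference between ligands, moved the other way, from 33.3, 34.6 and 33.3 CPM to 56.1, 56.2, 49.3, 46.8 and 52.4 CPM (0.63 ± 0.07, adjusted p = 0.000203). The receptor genes Notch1 (-0.30 ± 0.10, adjusted p = 0.115) and Notch2 (-0.19 ± 0.08) did not pass. Without control CT4 replicate 1 and control CT16 replicate 5, Lfng rose and 2 members fell. Leaving out single control libraries left 3 to 5 that fell.

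The called astrocyte markers split by direction. Of 16 markers, Glul rose, Sox9 fell and 14 did not pass (4.21% of all genes passed), with a median of -0.17 and 4 fold changes above 0. At an unadjusted p under 0.05 there were 8, against 3372 of all 16910 genes. DESeq2 called 3 and voom 7, against 1317 and 1856 of all genes. The list score was 0.05 to 0.14 at CT4 and -0.16 to 0.20 at CT16, highest in CT16 replicate 2. Glul, the glutamine synthetase that clears glutamate, stood at 1220, 1270 and 1360 CPM at CT4 and 1530, 1670, 1580, 1650 and 1440 CPM at CT16 (0.29 ± 0.07, adjusted p = 0.0196). Sox9, a transcription factor of astrocyte identity, fell from 44.5 to 49.5 CPM to 28.3 to 36.1 CPM (-0.54 ± 0.09, adjusted p = 0.00251). The Sox9 call was kept in all 20 alternatives and that of Glul lost in 3. Mertk, a receptor by which astrocytes and microglia engulf debris, rose by 1.02 ± 0.09 (adjusted p = 1.87e-05).

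Some of the microglia markers fell at CT16. Microglia are the resident macrophages of the brain and survey it with purinergic and fractalkine receptors. Of 15 markers, 4 fell (against 2.08% of all genes), none rose and 11 did not pass, all 15 fold changes lay below 0, and the median was -0.39. The summed level of the list was 440.1 to 533.6 CPM in the CT4 libraries and 361.6 to 420 CPM in the CT16 libraries. In bulk tissue, fewer cells of a type and less RNA per cell cannot be told apart. Cx3cr1, the fractalkine receptor, stood at 48.3, 39.9 and 46.5 CPM at CT4 and 32.7, 28.1, 25.5, 29.6 and 23.9 CPM at CT16 (-0.68 ± 0.13, adjusted p = 0.00995). P2ry12, the purinergic receptor of resting microglia, fell by 0.58 ± 0.13 (adjusted p = 0.0250), Siglech by 0.56 ± 0.15 (adjusted p = 0.0459) and Fcrls by 0.39 ± 0.10 (adjusted p = 0.0438).

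P2ry13, a sister receptor of P2ry12 that is not in the list, fell from 8.89, 7.44 and 8.01 CPM to 3.91, 4.66, 3.68, 3.98 and 4.3 CPM (-0.98 ± 0.12, adjusted p = 0.000316). Its call was kept in all 20 alternatives. The complement genes C1qa (-0.25 ± 0.21), C1qb (-0.15 ± 0.16) and C1qc (-0.16 ± 0.16) and Tmem119 (-0.02 ± 0.13), all abundant in microglia, did not pass. The list was sensitive to libraries: without control CT4 replicate 1, whose microglia score was the highest at 0.36, none of the 15 passed and the median was -0.29. The calls of Fcrls and Siglech were lost in 11 of 20 alternatives, that of P2ry12 in 8 and that of Cx3cr1 in 2.

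Vessel genes changed in both directions. Cldn5, the main tight junction protein of the blood-brain barrier (chromosome 16, 18776847 to 18778262, plus strand), stood at 30.2, 26.8 and 34 CPM at CT4 and 17.5, 15.7, 13.6, 13.9 and 13.2 CPM at CT16. It was lower in every CT16 library by a wide margin (-1.04 ± 0.12, adjusted p = 0.000175). Pdgfrb, the receptor that marks pericytes, fell by 0.54 ± 0.10 (adjusted p = 0.00727), whereas Ly6c1, an endothelial surface protein, rose by 0.43 ± 0.10 (adjusted p = 0.0216). The other 15 of 18 markers did not pass (4.21% of all genes passed), and the median was -0.14. Slc2a1, the glucose transporter GLUT1 of endothelium and glia, stood at 114, 119 and 119 CPM at CT4 and 196, 201, 176, 190 and 197 CPM at CT16 (0.71 ± 0.06, adjusted p = 1.87e-05). It was the only called gene of 23 in glucose transport and glycolysis. Endothelial genes included Mfsd2a and Slc2a1 that rose and Cldn5 that fell, while most markers did not pass.

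Of 18 neuropeptide genes of the SCN, 0 passed in edgeR (against 4.21% of all genes), with a median of 0.04. At an unadjusted p under 0.05 there were 2, and DESeq2 and voom called 2 each. Of all 16910 genes, 3372 had an unadjusted p under 0.05, and DESeq2 called 1317 and voom 1856. Vip stood at 39.3 to 130 CPM at CT4 and 31.5 to 145 CPM at CT16 (-0.11 ± 0.53), and Avp at 72.3 to 681 CPM and 84.2 to 444 CPM (-0.41 ± 0.63). These ranges are wide within each time, so a moderate change was not detectable. Vgf, a secreted granule protein, had the smallest p (0.38 ± 0.11, adjusted p = 0.0662). Gal, which encodes galanin and is also made in nuclei beside the SCN, stood at 19.6, 8.57 and 9.66 CPM at CT4 and 55.4, 18.7, 48.5, 77.4 and 107 CPM at CT16 (2.28 ± 0.69, adjusted p = 0.0937). Its CT16 libraries were lowest in replicate 2 and highest in replicate 5. Among 20 receptors of neuropeptides, melatonin and light input, Cckar, a cholecystokinin receptor, rose by 0.71 ± 0.19 (adjusted p = 0.0439), a call lost in 12 of 20 alternatives.

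Of 17 identity factors and markers of the SCN, 4 fell (against 2.08% of all genes) and none rose, with a median of -0.26. With single control libraries left out, 0 to 4 fell and the median ran from -0.39 to -0.03. Rgs16, a regulator of Gi signalling in SCN neurons (chromosome 1, 153740353 to 153745468, plus strand), stood at 108, 242 and 206 CPM at CT4 and at 62.9, 61.6, 53.7, 57.9 and 45.2 CPM at CT16. The lowest CT4 library was replicate 1, and the groups did not overlap (-1.72 ± 0.36, adjusted p = 0.0231). Rasl11b, a small GTPase, stood at 20.1, 51.3 and 51.9 CPM and then 7.86 to 15.7 CPM (-1.81 ± 0.42, adjusted p = 0.0355). Six6, a homeobox factor of SCN development, fell by 0.99 ± 0.25 (adjusted p = 0.0467) and Sox1 by 0.52 ± 0.10 (adjusted p = 0.00866).

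Markers of neighbouring nuclei moved beside these. Of the 26, Lhx8, Lhx6, Hmx2 and Crh were called higher (against 2.13% of all genes), Foxb1 fell (against 2.08%) and 21 did not pass. The median was 0.31 in control and -0.81 in DKO. With single control libraries left out, 0 to 5 rose and the control median ran from 0.09 to 1.10. The summed level of the list was 464.7 to 877.7 CPM at CT4 and 766.9 to 1216 CPM at CT16. Lhx6, a factor of GABA neurons outside the SCN, stood at 0.50, 0.29 and 0.70 CPM at CT4 and at 5.71, 1.62, 7.26, 11.7 and 8.69 CPM at CT16, lowest in replicate 2. Hmx2 and its relative Hmx3 were lowest in the same CT16 library, at 1.39 and 1.87 CPM against 4.22 to 7.75 and 7.43 to 13.2 CPM in the other CT16 libraries. None of the 4 higher calls held when CT4 replicate 1, 2 or 3 or CT16 replicate 3, 4 or 5 was left out. Those of Crh, Lhx6, Hmx2 and Lhx8 were lost in 13, 12, 9 and 9 of 20 alternatives. Calls of Six6, Rasl11b and Rgs16 were lost in 12, 10 and 8 of 20 alternatives, and that of Sox1 in 2. With the neighbouring nuclei score as a covariate, Rgs16 (-1.17 ± 0.21, adjusted p = 0.0146) and Sox1 (-0.42 ± 0.09, adjusted p = 0.0139) passed, while Six6 (-0.75 ± 0.23, adjusted p = 0.0956) and Rasl11b (-1.36 ± 0.42, adjusted p = 0.11) did not.

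Lists of ion channel, transmitter receptor and vesicle release genes held 0 to 2 called members each, where 4.21% of all genes passed. Of 25 potassium channel genes, Kcnn2, a small-conductance calcium-activated channel, rose by 0.61 ± 0.09 (adjusted p = 0.00178) and Kcnk1, a leak channel, by 0.34 ± 0.07 (adjusted p = 0.0107). None fell, and the median was 0.02. Of 26 sodium, calcium and HCN channel genes, Cacna1e, an R-type calcium channel, fell by 0.23 ± 0.05 (adjusted p = 0.0217). The fold changes of 8 of the 26 lay above 0, and the median was -0.10. Their summed level was 4596 to 4662 CPM at CT4 and 4112 to 4394 CPM at CT16. Of 27 receptors of GABA, glycine and glutamate, 0 passed in edgeR, and Grin1, an NMDA receptor subunit, had the smallest p (0.25 ± 0.08, adjusted p = 0.0947). It was the only 1 with an unadjusted p under 0.05, against 3372 of all 16910 genes. DESeq2 and voom called 1 each, against 1317 and 1856 of all genes. Of 24 genes of vesicle release, Cadps2, which primes dense-core vesicles, fell by 0.48 ± 0.10 (adjusted p = 0.0165), while 19 fold changes lay above 0 (median 0.12). In cyclic AMP signalling, Adcy8, a calcium-stimulated adenylyl cyclase, fell from 57.2, 51 and 46.3 CPM to 32.7 to 39.4 CPM (-0.48 ± 0.09, adjusted p = 0.00559), and Gnas, which encodes the stimulatory G protein, rose by 0.24 ± 0.06 (adjusted p = 0.0367), a call lost in 12 of 20 alternatives.

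Lists of metabolism and nutrient signalling held 0 to 3 called members each, where 4.21% of all genes passed. Trib1, a pseudokinase that guides degradation of C/EBP alpha, rose from 7.48, 6.53 and 7.37 CPM to 19.9, 18.7, 18.3, 13.8 and 21.7 CPM (1.37 ± 0.14, adjusted p = 5.40e-05). Irs2, an adaptor of the insulin receptor, rose by 0.61 ± 0.11 (adjusted p = 0.00591) and Sqstm1, the autophagy receptor p62, by 0.26 ± 0.05 (adjusted p = 0.0135). These were 3 of 26 genes of autophagy, mTOR and FOXO (11.5%, against 2.13% of all genes), of which none fell. Pnpla2, the main triglyceride lipase, rose by 0.44 ± 0.07 (adjusted p = 0.00380). Of 24 oxidative phosphorylation genes, 0 passed in edgeR, although all 24 fold changes lay above 0 (median 0.13) and 10 had an unadjusted p under 0.05. DESeq2 called 2 and voom 4. For all 16910 genes these counts were 3372 at an unadjusted p under 0.05, 1317 by DESeq2 and 1856 by voom. Of 28 ribosomal protein genes Rps24 rose (0.18 ± 0.05, adjusted p = 0.0418, lost in 12 of 20 alternatives), and 0 of 24 genes of cholesterol synthesis and uptake passed in edgeR (5 at an unadjusted p under 0.05, 2 by DESeq2 and 3 by voom). Of 29 other nuclear receptors, the retinoic acid receptor genes Rarg and Rarb fell, by 0.35 ± 0.08 (adjusted p = 0.0216) and 0.42 ± 0.11 (adjusted p = 0.0335). Among 19 clock-linked outputs of many tissues, Tsc22d3, Usp2 and Fmo2 rose and Dtx4 fell, against 2.13% and 2.08% of all genes.

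The lists of myelin (17 genes, median -0.28), ependymal and tanycyte (14, median 0.12), pan-neuronal (14, median 0.12), leptomeningeal and choroid plexus (14, median -0.07), blood (4 tested) and nuclear-retained RNA genes (18, median 0.00) held 0 called members in edgeR. At an unadjusted p under 0.05 they held 1, 1, 3, 3, 0 and 3, DESeq2 called 1, 1, 1, 0, 0 and 0, and voom 2, 0, 3, 1, 0 and 1. The same counts over all 16910 genes were 3372, 1317 and 1856, and 712 passed in edgeR. Opalin, a gene of myelinating oligodendrocytes, stood at 13.1 to 17.1 CPM at CT4 and 4.74 to 8.85 CPM at CT16 (-1.36 ± 0.44, adjusted p = 0.108). Neat1, the long RNA that builds nuclear paraspeckles, stood at 290, 224 and 300 CPM at CT4 and 171, 204, 95.4, 96.9 and 116 CPM at CT16 (-0.99 ± 0.44, adjusted p = 0.237), with its lowest values in CT16 replicates 3, 4 and 5.

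The time change of control SCN was then set against that of the libraries labelled DKO. Counts over the whole genes do not show a loss of the targeted receptors there, with Nr1d1 at 226 to 378 CPM and Nr1d2 at 163 to 259 CPM in the DKO libraries against 135 to 282 and 96.7 to 130 CPM in control. The labels do not say which part of either gene was deleted, so these counts check neither the deletion nor the label. The same comparison in DKO, over 4 CT16 and 3 CT4 libraries, gave 304 called genes (1.8%). Of these, 118 were also called in control, 38.8% of the DKO calls and 16.6% of the control calls, all with the same sign. The contrasts share no library, though 1 fit gave both their spread. Among the 360 genes that rose in control, 281 had a DKO change above 0, and among the 352 that fell, 257 had one below 0. The test of the difference itself passed for 2 genes (0.0118%), and Fabp7 was the only called control gene among them. Unadjusted, the difference had a p under 0.05 for 339 of the 712 control genes (47.6%) and 15.1% of all genes. Since the control genes were picked by a contrast that is part of this difference, the larger share is no separate result.

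Fabp7 stood at 113 to 122 CPM in the DKO CT4 libraries and 111 to 191 CPM in the DKO CT16 libraries, a change of 0.39, above all control libraries at either time. The control change minus the DKO change was -2.46 ± 0.24 (adjusted p = 0.00192). With the neighbouring nuclei score as a covariate it was -2.16 ± 0.28 and did not pass (adjusted p = 0.0921). Every other alternative kept it, at -2.59 to -2.27. The other gene that passed, Pla2g3, a secreted phospholipase, was not called in control (-0.30 ± 0.19) and rose in DKO (1.5 ± 0.19). Its difference was -1.79 ± 0.27 (adjusted p = 0.0382).

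Several control genes came just short of the threshold in this test. Hif3a rose by 2.93 in control and 1.49 in DKO (difference 1.44 ± 0.23, adjusted p = 0.0511). Nr1d1 was at -0.75 in control and 0.41 in DKO (-1.16 ± 0.19, adjusted p = 0.0517), and its DKO libraries stood at 226 to 252 CPM at CT4 and 241 to 378 CPM at CT16. For Mmp14, a fall of 1.44 in control stood against -0.17 in DKO (-1.27 ± 0.21, adjusted p = 0.0517), with 42.7 to 51.2 CPM and 33.4 to 51.2 CPM in the DKO libraries. Pde2a, a cyclic nucleotide phosphodiesterase, was at -0.39 in control and 0.34 in DKO (-0.73 ± 0.13, adjusted p = 0.0517), and Atp2a3 at -0.74 and -0.01 (-0.74 ± 0.13, adjusted p = 0.0517). Small rises in control stood against small negative DKO values for Atpif1, the inhibitor of ATP synthase (0.24 and -0.18), Clta, a clathrin light chain (0.25 and -0.19), and Rpl21, a ribosomal protein gene with many copies (0.19 and -0.13), with adjusted p of 0.0511, 0.0517 and 0.0517. At this threshold a difference of these genes between genotypes was not shown, and 298 genes passed without DKO CT16 replicate 3.

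The glucocorticoid list gave close medians in the genotypes. In DKO, 18 of its 24 genes rose, against 1.8% of all genes called there in either direction. The median was 0.99, against 0.95 in control. Tsc22d3 rose by 1.51 in DKO (difference 0.25 ± 0.11, adjusted p = 0.294) and Arl4d by 3.05 (-0.13 ± 0.50, adjusted p = 0.925). For ER chaperones the medians were 0.26 in control and 0.09 in DKO, with 3 of 21 that rose in DKO. For heat shock genes they were 0.22 and 0.10, with 1 of 28, again against 1.8% of all genes. No member of these 3 lists had a difference that passed in edgeR. Unadjusted, 6 members of each had a p under 0.05, against 15.1% of all genes. Rbm3 stood at 0.64 in control and 0.12 in DKO (0.52 ± 0.12, adjusted p = 0.103). The Notch target Hes5 fell in DKO too (-1.29, adjusted p = 0.00291), as did Cx3cr1 (-0.66, adjusted p = 0.0275), P2ry13 (-0.96, adjusted p = 0.000978) and Cldn5 (-0.83, adjusted p = 0.00291).

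**Figure D5:**
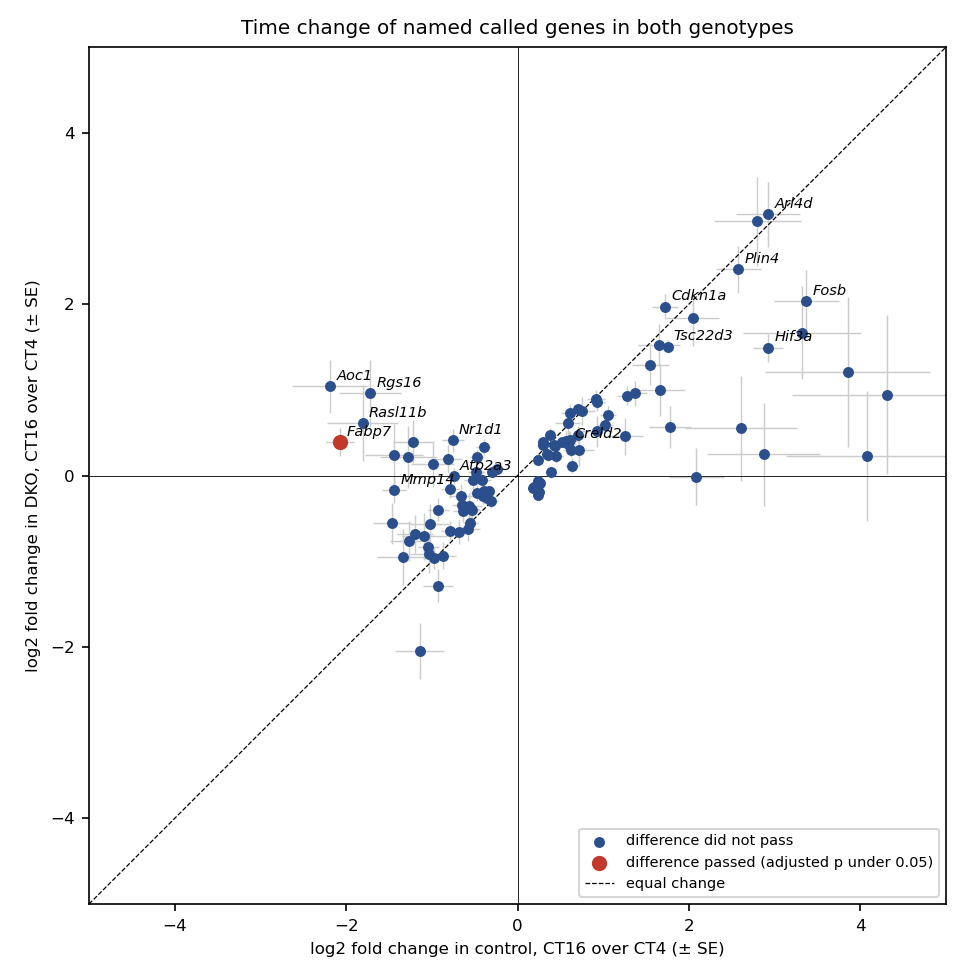
Log2 fold change, CT16 over CT4, in DKO against that in control for the 106 named genes called in control, each with its standard error. Of them 83 had the same sign in both genotypes, 37 were also called in DKO, and the difference passed for Fabp7 alone (red), at -2.07 in control and 0.39 in DKO.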

How the data were processed

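RNA of SCN punches was sequenced in 15 libraries, and the authors deposited whole-number read counts per gene, not normalized, beside each gene's exonic length in bases, an annotation value per the file headers (the deposited unit classed as other). Per the submitters' processing notes, the tools were STAR, featureCounts and DESeq2 and the build mm10; versions, annotation and strandedness: not given in the sources used here. Libraries were grouped by genotype and time in the labels.

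The fits used edgeR 4.0.16 under R 4.3.3. Genes kept by filterByExpr (16910 of 24419) were scaled by TMM, and 1 robust quasi-likelihood model with 4 group means was fitted to all 15 libraries (11 residual degrees of freedom). Contrasts were CT16 minus CT4 in control, in DKO and their difference, each Benjamini-Hochberg adjusted over all genes at 0.05. A call is an adjusted p under 0.05, and 2-fold counts come from the fitted values. Standard errors were derived from the F statistic of each contrast (fold change, without sign, over root F). CPM rest on library sizes multiplied by TMM factors, with a prior count of 2 on the log scale.

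The 36 lists hold 726 genes, of which 717 were tested. Members, lists and tests were chosen with earlier results of these data known. Named by rule were clock genes, the 16 largest rises and falls without overlap at a mean log2 CPM of at least 1, the 8 smallest p-values per direction, up to 5 called members a list, 2 members of smallest p in lists without a call, the highest and lowest expressed members of cell type lists, and 12 genes of smallest p for the difference, 157 genes in all. Others (Egr1, Nfkbia, Xbp1, Stip1 and further list members) were named to complete their lists, and Avp, Vip and Lhx1 as tissue checks. Promoter windows matched 124 of the 157.

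Library pairs of 1 group correlated at 0.9843 to 0.9899 in log2 CPM and differed beyond sampling noise (chi-square per degree of freedom 8.758 to 45.44), so each counted as 1 replicate. Alternatives were RLE and upper quartile scaling, DESeq2 1.42.0, voom with quality weights (limma 3.58.1), no filter and a stricter filter, covariates, a replicate block, control libraries alone and libraries left out. The steps were tested on simulated data.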

Additional observations from a re-analysis of the deposited data

Results flagged for a closer look

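Of 157 named genes, 5 (3.18%) had a control CT16 library set apart from the other 4 by Dixon's test at 95%, where chance gives about 1 in 20. Egr3 stood at 22.3 CPM in replicate 1 against 9.7 to 12.2 in the others, all above CT4. Fkbp4 was lowest in replicate 2, at 223 CPM against 245 to 253, and Crh in the same library, at 0.539 CPM against 3.53 to 5.12. Replicate 4 was highest for Cyp51, a gene of cholesterol synthesis, at 89.1 CPM against 79.2 to 81.8, and lowest for Col1a1, a collagen gene, at 3.01 CPM against 4.54 to 5.23. The fold change of Fabp7 differed between genotypes by -2.46 on the log2 scale, tested as an interaction.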

How the results depend on the processing

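Called genes numbered 712 (360 higher, 352 lower). DESeq2 gave 1317 (691 and 626) and voom 1856 (913 and 943). Without control CT4 replicate 1 and control CT16 replicate 5 there were 149 (85 and 64), and leaving out single control libraries gave 235 to 857 (130 to 443 higher, 105 to 414 lower). Same-numbered control libraries did not deviate together (r = -0.144, 0.03 and 0.012). The largest r, 0.223, joined control CT4 replicate 1 with control CT16 replicate 5, the libraries highest for neighbouring nuclei markers at each time. With 3 same-numbered pairs, whether the numbers mark a pairing or a batch cannot be told. With the replicate block there were 379 (178 and 201), and with the replicate block on the control libraries alone 246 (143 and 103). Upper quartile scaling, which shifted the median of all genes to -0.02, gave 722, split 299 higher and 423 lower, leaving out single DKO libraries, which share the spread, gave 560 to 1057, and the other alternatives gave 627 to 889. The difference between genotypes, 2 genes, became 360 with DESeq2, 422 with voom, 6 without a filter, 1 with the replicate block, 0 with the neighbouring nuclei covariate, 89 with the myelin covariate, 1 without both named libraries, and 1 to 298 without single libraries. The causes were not tested. Of 106 named called genes, 39 kept their call in all 20 alternatives, 17 lost it in at least 10, and 0 reversed.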
